A study of Mesocentrotus franciscanus with 18 samples.

Results

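Among 127198 Trinity gene groupings of the red sea urchin *Mesocentrotus franciscanus*, 100 were chosen because size went with opposite changes in the nerve and in the muscle of the jaw. The 50 nerve-up groupings were higher in Large than in Small animals in the radial nerve (RN) and lower in Large animals in the muscle of Aristotle's lantern (ALM), the jaw apparatus. The 50 muscle-up groupings did the reverse, lower in Large animals in RN and higher in ALM. A grouping is a cluster of assembled transcripts that stands for a gene, and its name is given here without the prefix TRINITY_.

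The 18 RNA-Seq libraries came from RN, ALM and the esophagus (ES) of Large (old) and Small (young) wild animals, giving the 6 groups RN-L, RN-S, ALM-L, ALM-S, ES-L and ES-S with 3 libraries each. Each library is a pool of equal amounts of RNA from several animals of one size collected in 1 summer (2010, 2011 or 2013), so the spread within a group is that between pools and years, and animals of one size and year gave all the tissues. No group carried a mutation or a treatment, and size stands for age in the design. Total counts per library ranged from 7383210 to 11547218. Values are CPM, the count of a grouping scaled by the total of its library, and per-library values run in the order 2010, 2011 and 2013. Where TMM scaling is named, libraries were instead set to a common level over most genes.

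The members were chosen by the measurements themselves. For each year the difference d between the Large and the Small library of a tissue was taken on log2(CPM + 1). A nerve-up grouping's score is the smaller of its lowest d in RN and of its highest d in ALM with the sign turned, and the muscle-up score is its mirror image. Each set holds the 50 highest scores, so every member moved in opposite directions in the tissues in all 3 years by construction. The RN and ALM size differences below are therefore descriptions without a test. In RN the years of the libraries follow their titles, since the sample characteristics give 2010 for all 6 RN samples, and each yearly d in RN rests on that reading. The rule did not use the esophagus, years left out of the choice, or the difference in level between RN and ALM. That difference in level was nevertheless read in the same RN and ALM libraries.

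The radial nerves run along the ambulacra of the test and form, with the nerve ring, the central part of the echinoderm nervous system. Neurons signal through acetylcholine, GABA, monoamines and neuropeptides, in part by way of G protein-coupled receptors. The muscles of Aristotle's lantern move the teeth and lie beside the calcite plates of the jaw, so muscle dissected from it can carry skeleton-forming cells. Each tissue also holds connective tissue, epithelium and wandering coelomocytes. In such bulk RNA, fewer cells of a type and less RNA per cell cannot be told apart.

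Library names fall into 3 series. One holds only the 3 RN-L libraries, one only the RN-S libraries of 2010 and 2011, and the remaining 13 libraries, with RN-S 2013 among them, share the last. Series and size cannot be told apart in RN, whereas in ALM all libraries share 1 series. Of the RN libraries only RN-S 2013 shares the ALM series, so levels in RN against ALM are also largely tied to series. Among the muscle libraries ALM-S 2010 stood apart, with 67.7% of its counts in the 50 most abundant groupings, against 49.8% to 61.3% in the other ALM libraries.

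Genes of muscle, neurons and skeleton-forming cells moved with size in the nerve libraries. The actin gene of muscle, Msclact, had 1813, 7519 and 4797 CPM in RN-L, against 166801, 85829 and 108123 CPM in RN-S, and 159537, 110192 and 140205 CPM in ALM-L, against 194091, 214941 and 219285 CPM in ALM-S. Its RN-S levels overlapped those of ALM-L, and its RN-L levels lay far below both. edgeR's quasi-likelihood test was run on the size contrast of each tissue. Calls needed a p under 0.05 after Benjamini-Hochberg adjustment together with a log2 fold-change beyond 1 in either direction. Of 12 muscle genes 10 were linked, to 11 groupings, and edgeR called 10 of 10 groupings tested lower in RN-L, where 10.3% of all rows tested were called lower and 11.4% higher. Their sum was 2469 to 3770 CPM in RN-L and 18955 to 41620 CPM in RN-S, and 23138 to 34961 CPM in ALM-L and 42781 to 55012 CPM in ALM-S. All 14 neuron genes were linked, and 15 of 15 groupings were called higher in RN-L. These 14, like the 12 muscle genes, are a chosen list of named genes. No wider muscle list was counted, and the paper reports cytoskeleton genes rising and falling with age in RN, with myosins among those rising. Over all linked nerve function genes of the study, 102 of 122 groupings tested were called higher and 11 lower in RN-L. The neuron groupings summed to 1366 to 2020 CPM in RN-L and 196 to 263 CPM in RN-S. They overlapped in muscle, at 47.5 to 136 CPM in ALM-L and 62.9 to 148 CPM in ALM-S. Genes of skeleton-forming cells summed to 28.7 to 86.0 CPM in RN-L and 484 to 679 CPM in RN-S, and to 209 to 477 CPM in ALM-L and 536 to 897 CPM in ALM-S, with 11 of 14 groupings called lower in RN-L and 1 of 15 in ALM-L, where 0.00408% of all rows were called lower. No grouping of these 3 lists was at 0 in every library of a tissue. In ALM 0 of 11 muscle and 0 of 7 neuron groupings were called, and 2 of the 11 muscle groupings had a positive fold-change. The part of these genes in the pattern was not tested. The study listed these genes for their change with size in these libraries, so they are not independent evidence.

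Scores were modest for the nerve-up groupings and larger for the muscle-up groupings. The nerve-up scores ran from 0.91 down to 0.32, and 559 groupings of the whole table had a score above 0, 20 of them above 0.5 and 0 above 1. The muscle-up scores ran from 1.63 down to 0.70, with 2021 groupings above 0, 128 above 0.5 and 15 above 1. Just inside the limit, DN34_c1_g1 and DN32715_c1_g1 closed the nerve-up set at 0.32 and 0.32, and just outside it DN609_c0_g1 and DN9315_c0_g4 had 0.31 and 0.31. In the muscle-up set DN2537_c0_g1 and DN3534_c6_g1 had 0.70 and 0.70, against 0.70 and 0.70 for DN16059_c2_g2 and DN4497_c0_g1 outside, so the limits mark no gap in the scores.

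**Figure D1:**
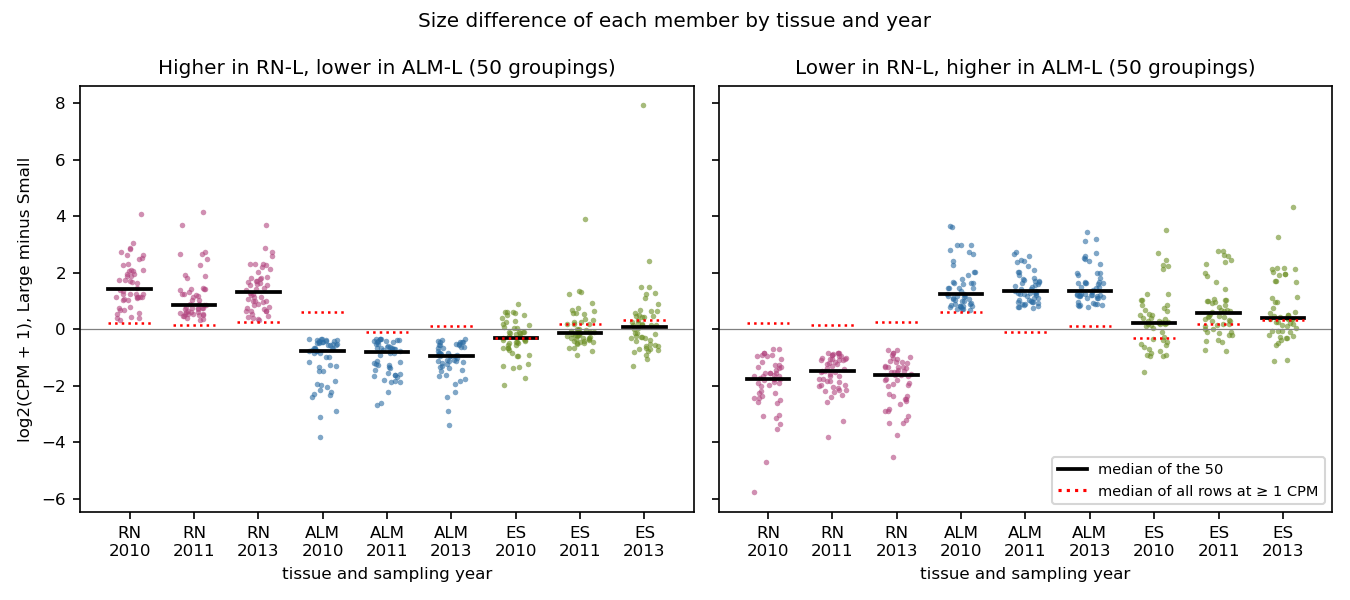
Difference between Large and Small libraries, on log2(CPM + 1), of each of the 50 nerve-up (left) and 50 muscle-up (right) groupings in RN, ALM and ES in 2010, 2011 and 2013, with black bars at their medians and dotted red lines at the median of all 28638 rows at 1 CPM or more. RN and ALM lie on opposite sides of 0 by the choice of members, while in ES the muscle-up medians were 0.24, 0.57 and 0.40, with the last at −0.08 under TMM scaling.

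The nerve-up groupings were mostly highest in the nerve and present in muscle libraries at trace level. Of the 50, 40 had their highest mean level in RN, 7 in ALM and 3 in ES, and the median ratio of RN to ALM was 5.48 on the log2 scale. The share of all rows highest in each tissue was not counted. Every RN library was above every ALM library in 30 of the 50, as in 17.9% of the 28638 rows that averaged 1 CPM or more, and the reverse held in 0, as in 2.64% of those rows. Within Large animals every RN library was above every ALM library in 44, as in 39.8% of rows, and within Small animals 30 had that order, as 40.3% of rows did, and 11 the opposite one, as 5.22% did. The size differences that chose the members enter these levels and orders, which rest on CPM without TMM scaling. Together the 50 took 9.15%, 6.13% and 7.53% of all counts in the RN-L libraries, against 3.02%, 3.56% and 2.89% in the RN-S libraries. In muscle they summed to 0.0206%, 0.0128% and 0.0194% of the ALM-L libraries, against 0.0504%, 0.0464% and 0.0497% of the ALM-S libraries. The median d of the set was 1.44, 0.88 and 1.33 in RN and −0.75, −0.80 and −0.94 in ALM. In 30 of the 50 at least 1 ALM-L library held under 10 counts, and in 33 no ALM library reached 100 counts, so the muscle side of the pattern rests on few reads for most of them. Large and Small libraries did not overlap in RN in 47 nerve-up groupings, where 29.9% of all rows tested were higher without overlap, and in ALM in 41, where 2.09% were lower without overlap. Of the 50 members, 46 were among the rows tested in RN and 42 in ALM. Averaged over the years, d ran from 0.42 to 3.82 in RN and from −2.05 to −0.41 in ALM.

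The highest-scoring nerve-up grouping, DN3822_c0_g1, which carries no gene name in the files used here, was among the abundant transcripts of the nerve. It had 13471, 4486 and 6149 CPM in RN-L, against 1815, 2394 and 1236 CPM in RN-S. In muscle it had 1.68, 1.52 and 1.14 CPM in ALM-L, against 18.8, 5.37 and 3.51 CPM in ALM-S, which are 19, 17 and 13 counts against 179, 62 and 38 counts. Large and Small libraries did not overlap in either tissue, and ALM-S 2010 stood highest of the muscle libraries. DN182_c0_g1, also unnamed, showed the same layout, with 7532, 5707 and 8209 CPM in RN-L and 3383, 3382 and 2523 CPM in RN-S. Its muscle levels were 2.12, 0.626 and 1.06 CPM in ALM-L and 12.7, 4.68 and 3.42 CPM in ALM-S. The sizes again did not overlap. DN324_c4_g1, picked out after its values were seen as the most abundant member in RN-L, had 18440, 11716 and 15106 CPM in RN-L and 5936, 7502 and 6442 CPM in RN-S. Only 15, 20 and 15 counts of it lay in ALM-L, against 298, 75 and 37 counts in ALM-S. In all, 12 nerve-up groupings averaged 1000 CPM or more in RN-L.

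DN47_c0_g1 and DN23166_c0_g1, unnamed groupings with the fifth and the third score, were less alike. DN47_c0_g1 was abundant in nerve and in esophagus, with 6228, 6917 and 8572 CPM in RN-L and 3868, 4173 and 2897 CPM in RN-S, while its muscle level was 5.93, 8.23 and 9.67 CPM in ALM-L and 35.5, 28.8 and 23.1 CPM in ALM-S. In the esophagus it averaged 3740 ± 782 CPM in ES-L and 4042 ± 360.2 CPM in ES-S (SD, n = 3 each), a difference within the spread. DN23166_c0_g1 was low in all tissues, and its ALM values overlapped between sizes, at 5.93, 0.358 and 1.41 CPM in ALM-L and 25.4, 1.21 and 24.3 CPM in ALM-S.

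Neurotransmitter and neuropeptide receptors were among the 9 nerve-up groupings that could be linked to a named gene of the purple sea urchin. Gabbr1_3 is a homolog of a subunit of the metabotropic GABA-B receptor, through which GABA inhibits neurons. It had 39.1, 119 and 61.2 CPM in RN-L, against 5.98, 5.76 and 12.5 CPM in RN-S, with no overlap. In muscle it was barely detected, with 6, 0 and 1 counts in ALM-L and 14, 9 and 11 counts in ALM-S. MachrM4, a muscarinic acetylcholine receptor, had 82.7, 66.1 and 60.4 CPM in RN-L, against 3.93, 4.24 and 3.74 CPM in RN-S. Its ALM levels were 1.06, 1.70 and 1.76 CPM in ALM-L and 1.68, 7.19 and 8.69 CPM in ALM-S, and here the lowest ALM-S library lay inside the ALM-L range. NmbrL_4 resembles the receptor for neuromedin B, a bombesin-like neuropeptide of vertebrates. It had 16.6, 25.5 and 30.9 CPM in RN-L and 3.22, 2.93 and 3.38 CPM in RN-S, but 0.265, 1.61 and 0.791 CPM in ALM-L and 4.20, 2.60 and 8.41 CPM in ALM-S, without overlap in either tissue.

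**Figure D2:**
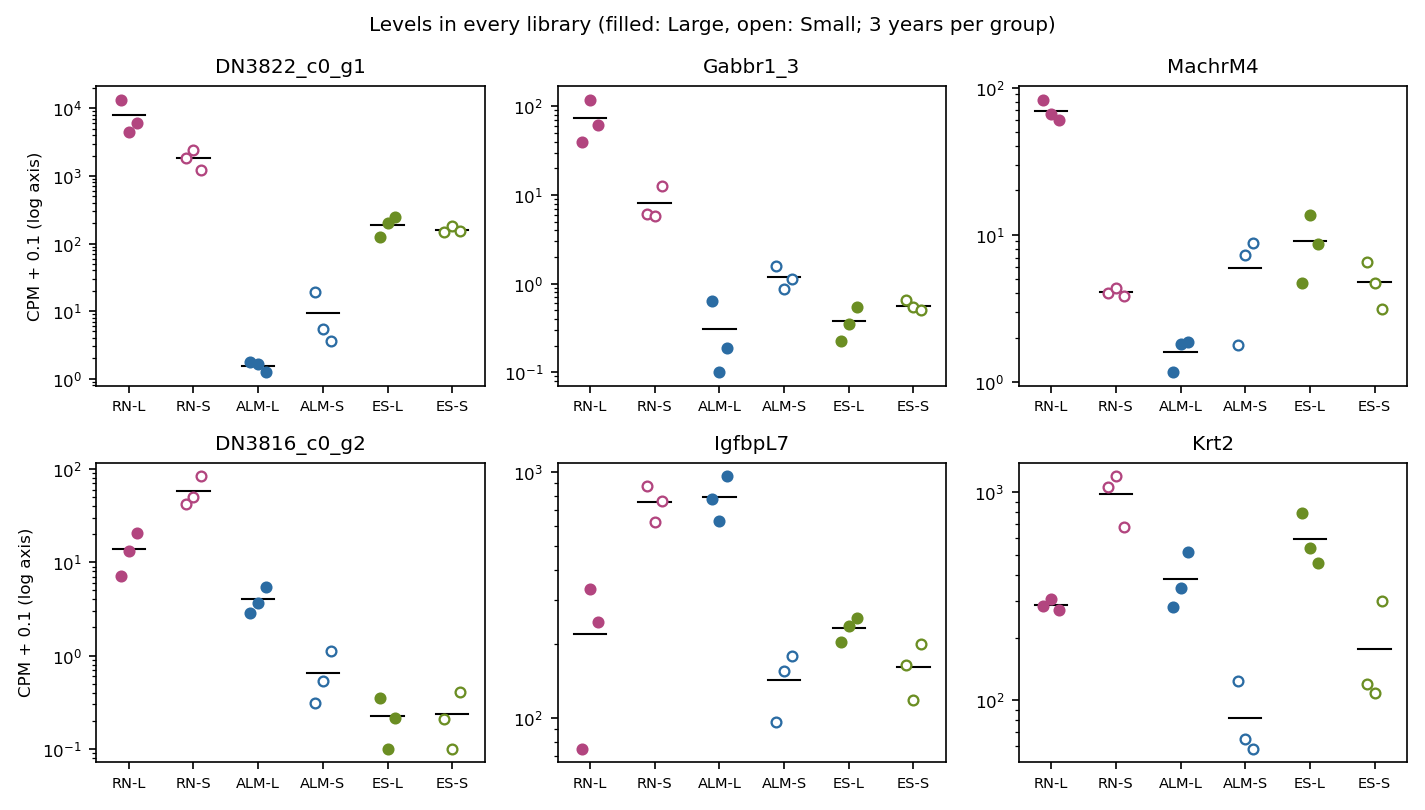
Level of 6 members in every library, as CPM + 0.1 on log axes, with Large libraries filled, Small libraries open and a bar at the mean of 3 years. DN3822_c0_g1, Gabbr1_3 and MachrM4 (top) were highest in RN-L, and DN3816_c0_g2, IgfbpL7 and Krt2 (bottom) were lower in RN-L than in RN-S and higher in ALM-L than in ALM-S.

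The remaining named nerve-up groupings had other roles. Nbc, a sodium bicarbonate cotransporter that moves bicarbonate across the cell membrane, had 84.7, 92.4 and 73.4 CPM in RN-L, against 9.20, 13.5 and 11.3 CPM in RN-S. In muscle it had 9.91, 6.71 and 3.34 CPM in ALM-L and 16.2, 9.27 and 18.95 CPM in ALM-S, and these overlapped. Adam/TsL6, named for secreted ADAMTS-like proteins of the extracellular matrix, was an abundant nerve transcript with 6967, 3313 and 4142 CPM in RN-L and 2082, 2484 and 1212 CPM in RN-S. Its muscle traces were 2.57, 0.447 and 0.967 CPM in ALM-L and 12.8, 5.72 and 3.98 CPM in ALM-S. Fbs_5 belongs to the fibrosurfins, matrix proteins known from sea urchins. It was low in both tissues, at 3.42 ± 0.605 CPM in RN-L and 1.66 ± 0.97 CPM in RN-S, and at 0.266 ± 0.319 CPM in ALM-L and 4.01 ± 2.15 CPM in ALM-S (SD, n = 3 each).

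Aqp8, a homolog of the water channel aquaporin 8, was foremost a gene of the esophagus, where it averaged 2338 ± 187 CPM in ES-L and 3186 ± 262 CPM in ES-S (SD, n = 3 each). In the nerve it reached 6.25, 2.84 and 2.13 CPM in RN-L against 0.179, 0.606 and 0.724 CPM in RN-S, and in muscle 0.265, 0.268 and 0.352 CPM in ALM-L against 1.47, 1.04 and 1.39 CPM in ALM-S. DN34_c1_g1 at the limit of the set had the same tissue pattern, with 816 ± 61.6 CPM in ES-L and 1255 ± 126 CPM in ES-S but at most 0.677 CPM in an RN library and 2.40 CPM in an ALM library. For both, the opposite size differences concern levels far below those of the esophagus. Melkl, named after a maternal embryonic leucine zipper kinase, was measured well in both tissues, with 42.5, 88.0 and 79.2 CPM in RN-L against 18.8, 17.4 and 15.6 CPM in RN-S, and 9.55, 5.73 and 11.5 CPM in ALM-L against 14.6, 22.6 and 20.3 CPM in ALM-S. Nop2, a homolog of a nucleolar methyltransferase needed for ribosome assembly, had 7.53 ± 2.99 CPM in RN-L and 0.944 ± 0.228 CPM in RN-S, while its ALM libraries held at most 14 counts.

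The sums of the muscle-up groupings crossed over between the tissues with size. By mean level 25 were highest in RN, 16 in ALM and 9 in ES, and the median ratio of RN to ALM was 0.12 on the log2 scale. Here too the share of all rows highest in each tissue was not counted. An ALM library held under 10 counts in 11 muscle-up groupings and an RN library in 7, and in 8 no ALM library reached 100 counts. Their sum was 0.254%, 0.272% and 0.2596% of counts in RN-L, against 1.08%, 1.08% and 0.7297% in RN-S. In muscle it was 0.4702%, 0.474% and 0.587% in ALM-L, against 0.165%, 0.164% and 0.177% in ALM-S. The sum was thus lower in RN-L than in ALM-L, and higher in RN-S than in ALM-S. A single unnamed grouping, DN179_c0_g1, picked out after its values were seen, made up a large share, with 1624, 1219 and 1345 CPM in RN-L and 6357, 6087 and 2903 CPM in RN-S. Without it the sums were 0.0912% to 0.151% in RN-L and 0.439% to 0.4699% in RN-S, and 0.412% to 0.515% in ALM-L and 0.134% to 0.1504% in ALM-S. The sums thus also crossed without this grouping. Every member was chosen to be lower in RN-L and higher in ALM-L, and that choice enters the crossing. The median d was −1.74, −1.47 and −1.61 in RN and 1.26, 1.36 and 1.36 in ALM. The sizes did not overlap in RN in 50 muscle-up groupings, where 12.5% of all rows tested were lower without overlap, and in ALM in 46, where 14.4% were higher without overlap. With TMM scaling all 50 nerve-up groupings still moved in opposite directions in all 3 years, but 9 muscle-up groupings lost the ALM direction in 2010.

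The order of the tissues turned with size in many muscle-up groupings. In 37 of the 50 every RN-S library was above every ALM-S library, as in 40.3% of all rows at 1 CPM or more, and in 32 every ALM-L library was above every RN-L library, as in 14.4% of those rows. Both held in 19 members, among them Hypp_748, IgfbpL7, Clect_56 and Rgn, and in 1.19% of rows. The size differences that chose the members enter these counts, and the orders rest on CPM without TMM scaling. TMM factors, which multiply the total of a library, were 0.48 to 0.80 in ALM-S and 0.93 to 1.21 in RN-S. A smaller factor raises the scaled levels of a library. The orders were not counted under TMM scaling, so how many of these members keep them there is not known. In 20 muscle-up groupings every RN-S library was above every ALM library of either size, as in 23.9% of rows, so that the nerve of Small animals, and not the muscle, held their highest levels of the pair.

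DN3816_c0_g2, the highest-scoring muscle-up grouping, has no gene name in the files used here and was highest in the nerve of Small animals. It had 6.998, 13.1 and 20.7 CPM in RN-L, against 41.7, 49.4 and 83.7 CPM in RN-S. In muscle it had 31, 40 and 61 counts in ALM-L and 2, 5 and 11 counts in ALM-S. The sizes did not overlap in either tissue. DN743_c0_g1, linked to the unnamed purple sea urchin gene model SPU_016307, had 55.4, 70.8 and 65.3 CPM in RN-L and 189.9, 243 and 185 CPM in RN-S. Its muscle levels were 53.2, 47.1 and 34.8 CPM in ALM-L and 18.6, 14.5 and 10.5 CPM in ALM-S, so the tissues lay closer to each other in Large than in Small animals.

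The next 3 scores belonged to groupings that were higher in muscle when averaged over the sizes. In Small animals, by CPM without TMM scaling, Hypp_748 was nevertheless higher in every RN than in any ALM library. The other 2 overlapped between the tissues there. DN3219_c0_g1 and DN3219_c0_g2, the second of which is linked to the uncharacterized gene Hypp_748, come from one Trinity cluster and may share reads, so they are not independent of each other. The Hypp_748 grouping had 31.1, 52.4 and 38.2 CPM in RN-L, against 100.4, 152 and 111 CPM in RN-S, and 324, 223 and 319 CPM in ALM-L, against 59.9, 93.3 and 79.4 CPM in ALM-S. DN3219_c0_g1 averaged 3.50 ± 1.31 CPM in RN-L and 13.5 ± 4.32 CPM in RN-S, and 46.3 ± 11.5 CPM in ALM-L and 9.30 ± 3.16 CPM in ALM-S (SD, n = 3 each). DN11749_c0_g1, unnamed, had 10.1, 10.02 and 9.32 CPM in RN-L and 25.6, 48.2 and 55.8 CPM in RN-S, while in muscle it had 152, 329 and 275 CPM in ALM-L and 36.8, 50.8 and 28.9 CPM in ALM-S. The sizes of these 3 did not overlap within a tissue. A second grouping linked to Hypp_748, DN35708_c0_g1, lacked the pattern, with d of −0.34, 0.48 and −0.73 in RN and 1.67, 1.66 and 1.12 in ALM.

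Of the 7 named muscle-up groupings 6 had an annotated role. IgfbpL7 is a homolog of insulin-like growth factor-binding protein 7, a secreted protein that binds growth factors. It had 74.7, 334 and 245 CPM in RN-L against 872, 625 and 761 CPM in RN-S, and 776, 631 and 959.8 CPM in ALM-L against 95.9, 154 and 178 CPM in ALM-S. RN-S and ALM-L thus reached similar levels, at 753 ± 123 CPM in RN-S and 789 ± 165 CPM in ALM-L. Fn3_26, a gene with fibronectin type III domains, had 22.5, 32.0 and 26.4 CPM in RN-L against 142, 103 and 93.7 CPM in RN-S. In muscle its values overlapped between sizes, at 278, 150.3 and 347 CPM in ALM-L and 128, 81.0 and 159 CPM in ALM-S, although Large exceeded Small in each year. Clect_56, a C-type lectin gene, had 5.37, 41.2 and 48.4 CPM in RN-L against 164, 118 and 188 CPM in RN-S, and 96.4, 60.2 and 89.0 CPM in ALM-L against 47.0, 33.3 and 26.9 CPM in ALM-S.

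Krt2, named for an epithelial keratin, was among the more abundant muscle-up groupings. It had 283, 305 and 270.2 CPM in RN-L against 1058, 1195 and 678 CPM in RN-S, and 282, 345 and 514 CPM in ALM-L against 123, 64.6 and 58.3 CPM in ALM-S. The sizes did not overlap in either tissue. St8sia, a sialyltransferase that adds sialic acid to glycans, had 15.9, 13.1 and 11.9 CPM in RN-L against 51.0, 41.6 and 35.6 CPM in RN-S. Its muscle values overlapped, at 58.5, 10.02 and 64.8 CPM in ALM-L and 3.68, 4.76 and 12.1 CPM in ALM-S, with ALM-L 2011 far below the other Large libraries. Rgn, the homolog of the calcium-binding protein regucalcin, was low, at 1.71 ± 0.53 CPM in RN-L and 6.02 ± 0.935 CPM in RN-S, and at 6.02 ± 1.75 CPM in ALM-L and 1.38 ± 0.695 CPM in ALM-S. DN111_c2_g1, linked to the unnamed gene model SPU_014944, had 42.8 ± 16.0 CPM in RN-L and 116 ± 57.1 CPM in RN-S, and 75.9 ± 13.1 CPM in ALM-L and 14.2 ± 4.77 CPM in ALM-S (SD, n = 3 each).

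The study marked 12 genes of its muscle list as changing the other way in nerve, and 10 of these could be linked, to 13 groupings. Of these groupings 7 were members, namely Melkl and NmbrL_4 among the nerve-up and Krt2, St8sia, IgfbpL7, Hypp_748 and DN111_c2_g1 among the muscle-up. That list was chosen on these same libraries and is no independent evidence. The remaining 6 groupings fell short of the limit, among them Fhod3, a formin gene of actin assembly, and LrpL_8, with a nerve-up score of 0.03. One Fhod3 grouping had d of −2.15, −1.21 and 0.22 in RN beside 2.24, 2.31 and 0.83 in ALM, and the other −0.92, −1.27 and −0.57 in RN beside 1.91, 0.39 and 0.84 in ALM.

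In edgeR's size comparisons the members differed in how clearly the tissues separated, and these counts are given as description since the rule used both contrasts. The median RN log2 fold-change was 1.04 for the nerve-up and −2.30 for the muscle-up groupings, and the ALM medians were −1.91 and 1.33. In RN, 20 of 46 nerve-up groupings tested were called higher in RN-L, beside 11.4% of all 29047 rows, and 49 of 49 muscle-up groupings were called lower, beside 10.3% of rows, with 21.7% of rows called in either direction. In ALM, 0 of 42 nerve-up and 0 of 50 muscle-up groupings were called, where edgeR called 0.00408% of 24497 rows lower and 0.0% higher, while 36 nerve-up groupings were lower and 39 muscle-up groupings higher at an unadjusted p under 0.05, beside 3.07% and 3.82% of rows. DESeq2 called 21 nerve-up groupings lower in ALM-L, beside 0.735% of rows, and 15 muscle-up groupings higher, beside 0.706%. In simulated ALM counts edgeR recovered 5% of 200 groupings changed by a log2 fold-change of 2. Its lack of calls in ALM therefore does not show that size had no effect. In RN, 12 nerve-up and 47 muscle-up groupings were called with sampling year as a replicate block, and 7 and 35 without RN-S 2010, where the whole table gave 3833 and 2380 calls instead of 6302. These totals pool both directions. Their shares of the rows tested were not taken, so the member counts have no background beside them.

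The level in nerve against muscle, averaged over the sizes, was not scored by the rule. It was read in the same RN and ALM libraries, and a given ratio of Large to Small gives a smaller d at a low CPM. Membership is therefore not independent of level, and the calls below are description. All 50 nerve-up groupings were tested in this fit, while 42 passed edgeR's filter on low counts in the ALM libraries alone. edgeR called 33 of 50 nerve-up groupings higher in RN and 6 higher in ALM, beside 20.8% and 16.5% of all 39561 rows tested. Of the 50 muscle-up groupings 13 were called higher in RN and 20 higher in ALM. The median log2 difference of RN minus ALM was 4.79 for the nerve-up and −0.47 for the muscle-up groupings, with 0.10 over all rows. When libraries were scaled by column sums alone, the groupings called higher in ALM dropped to 2 among the nerve-up, and the muscle-up groupings turned from 13 higher in RN against 20 higher in ALM to 20 against 15.

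Single members spanned a wide range of this tissue difference. DN324_c4_g1 lay 10.19 ± 0.73 higher in RN on the log2 scale (SE, edgeR Benjamini-Hochberg adjusted p = 8.22e-09), DN3822_c0_g1 9.16 ± 0.59 (2.51e-09) and Adam/TsL6 9.13 ± 0.53 (7.52e-10). The receptors Gabbr1_3 and MachrM4 were higher in RN by 4.87 ± 0.46 (2.37e-07) and 1.76 ± 0.32 (0.000355). NmbrL_4 was higher by 1.22 ± 0.45 (0.0358), a call that did not hold without RN-S 2010 or 7 other libraries in turn, at values from 0.96 to 1.26. Among the muscle-up groupings DN3816_c0_g2 was higher in RN by 3.48 ± 0.43 (5.56e-06), whereas Hypp_748, Fn3_26 and DN11749_c0_g1 were lower in RN, by log2 differences of −1.87 ± 0.19 (6.32e-07), −2.43 ± 0.25 (8.71e-07) and −3.13 ± 0.35 (1.83e-06). Krt2 and IgfbpL7, at 0.74 ± 0.38 (adjusted p = 0.131) and −0.49 ± 0.28 (adjusted p = 0.176), were not called in either direction. Krt2 was called higher in RN with column sums alone (1.59, adjusted p = 0.000485) and without ALM-S 2010 (1.097, adjusted p = 0.0302), and Aqp8, Melkl and Nbc were called higher in RN with column sums alone, at 1.12, 1.42 and 1.65.

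**Figure D3:**
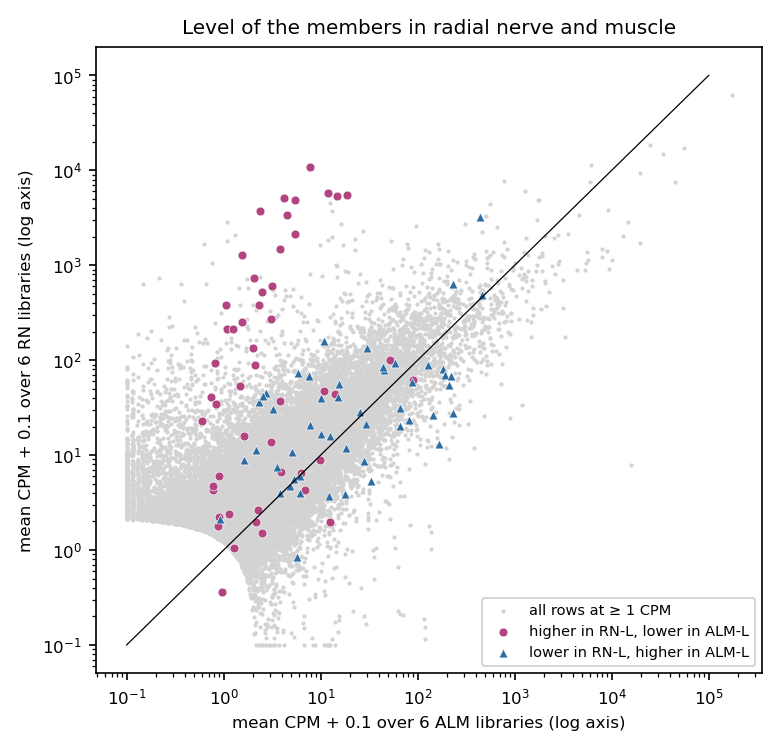
Mean level over the 6 RN libraries (vertical) against the 6 ALM libraries (horizontal), as CPM + 0.1 on log axes, for nerve-up groupings (circles), muscle-up groupings (triangles) and all rows at 1 CPM or more (grey), with a line at equal levels. Most nerve-up groupings lie far above it, with a median log2 ratio of 5.48, and the muscle-up groupings lie on both sides, with a median of 0.12.

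The esophagus shows how the same groupings differed between Large and Small animals in a tissue that played no part in choosing them. Of the muscle-up groupings 24 of 50 were higher in ES-L in all 3 years and 4 were lower in all 3, beside 13.3% and 13.6% of the 30184 rows tested there. Of the nerve-up groupings 3 were higher and 13 lower in all 3 years. The member counts of this paragraph are out of 50, but only 47 muscle-up and 38 nerve-up groupings were among the rows tested. Summed, the muscle-up groupings took 0.340%, 0.292% and 0.322% of counts in ES-L, against 0.232%, 0.212% and 0.226% in ES-S. With TMM scaling in place of column sums the muscle-up counts were 17 and 7, beside 10.9% and 18.1% of rows, and the nerve-up counts 1 and 14. Every ES-L library was above every ES-S library in 17 muscle-up groupings, beside 6.21% of rows, and in 1 nerve-up grouping. Every ES-S library was above every ES-L library in 1 muscle-up and 9 nerve-up groupings, beside 6.57% of rows. Since one pool of animals gave all tissues of a size and year, the esophagus is a separate tissue but not a separate set of animals.

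edgeR called 0 of 47 muscle-up and 0 of 38 nerve-up groupings in ES, where it called 0.00331% of all rows. In simulated ES counts this test recovered 0.5% of 200 groupings changed by a log2 fold-change of 2. The lack of calls therefore does not show that size had no effect there. At an unadjusted p under 0.05, 13 muscle-up groupings were higher and 0 lower, beside 4.25% and 3.85% of rows, and 1 nerve-up grouping was higher and 4 lower. The median log2 fold-change was 0.55 for the muscle-up and −0.01 for the nerve-up groupings, with 0.06 over all rows. Without ES-L 2010 the muscle-up median was 0.19, with 26 of 47 positive fold-changes instead of 38, and the nerve-up median was −0.28, beside −0.01 over all rows. At an unadjusted p under 0.05, 15 muscle-up groupings were then higher and 5 lower, and 3 nerve-up groupings higher and 12 lower, beside 10.7% and 10.5% of rows. DESeq2 called 8 muscle-up groupings higher, beside 0.636% of rows, and 0 nerve-up groupings higher or lower, beside 0.596% of rows called lower. In ES-L 2010 the 50 most abundant groupings took 48.4% of counts, against 22.9% to 33.9% in the other ES libraries. Without it edgeR called 7 muscle-up groupings higher, beside 1.51% of rows, and the nerve-up grouping DN255_c0_g1 lower, beside 1.12% of rows. DN255_c0_g1, named after its values were seen, had 36.6, 44.2 and 30.5 CPM in ES-L, against 95.6, 76.2 and 76.8 CPM in ES-S. The fit without ES-L 2010 and DESeq2 had 6 muscle-up groupings in common, and without any other ES library 0 members were called.

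The 8 muscle-up groupings that DESeq2 called in ES were picked out after their values were seen, and none has a gene name here. DN4322_c0_g1 had 5.84, 6.36 and 9.71 CPM in ES-L, against 0.442, 0.991 and 0.102 CPM in ES-S (DESeq2 Benjamini-Hochberg adjusted p = 2.42e-05, edgeR 0.208). DN61419_c1_g1 had 5.46, 6.23 and 6.32 CPM in ES-L, against 0.331, 0.33 and 0.915 CPM in ES-S. DN44289_c0_g1 had 14.9, 11.3 and 12.4 CPM in ES-L, against 1.88, 2.09 and 2.03 CPM in ES-S. The remaining 5, DN743_c0_g1, DN2476_c2_g1, DN4162_c0_g2, DN2579_c3_g1 and DN21324_c0_g1, had edgeR log2 fold-changes of 1.77 to 3.27. All of the 8 were higher in every ES-L library than in any ES-S library. In muscle the first 3 also lay higher in Large animals, at 4.54 ± 4.29, 5.05 ± 4.63 and 8.48 ± 1.19 CPM in ALM-L against 0.405 ± 0.13, 0.202 ± 0.211 and 1.52 ± 0.801 CPM in ALM-S. In nerve they lay lower in Large animals, at 8.90 ± 6.25, 12.7 ± 9.18 and 4.23 ± 1.40 CPM in RN-L against 74.2 ± 68.4, 76.8 ± 30.1 and 17.3 ± 4.24 CPM in RN-S (SD, n = 3 each). That RN went one way with size in these groupings while ALM and ES went the other follows from their choice. The rule set the directions in RN and ALM, and the DESeq2 call set that in ES.

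**Figure D4:**
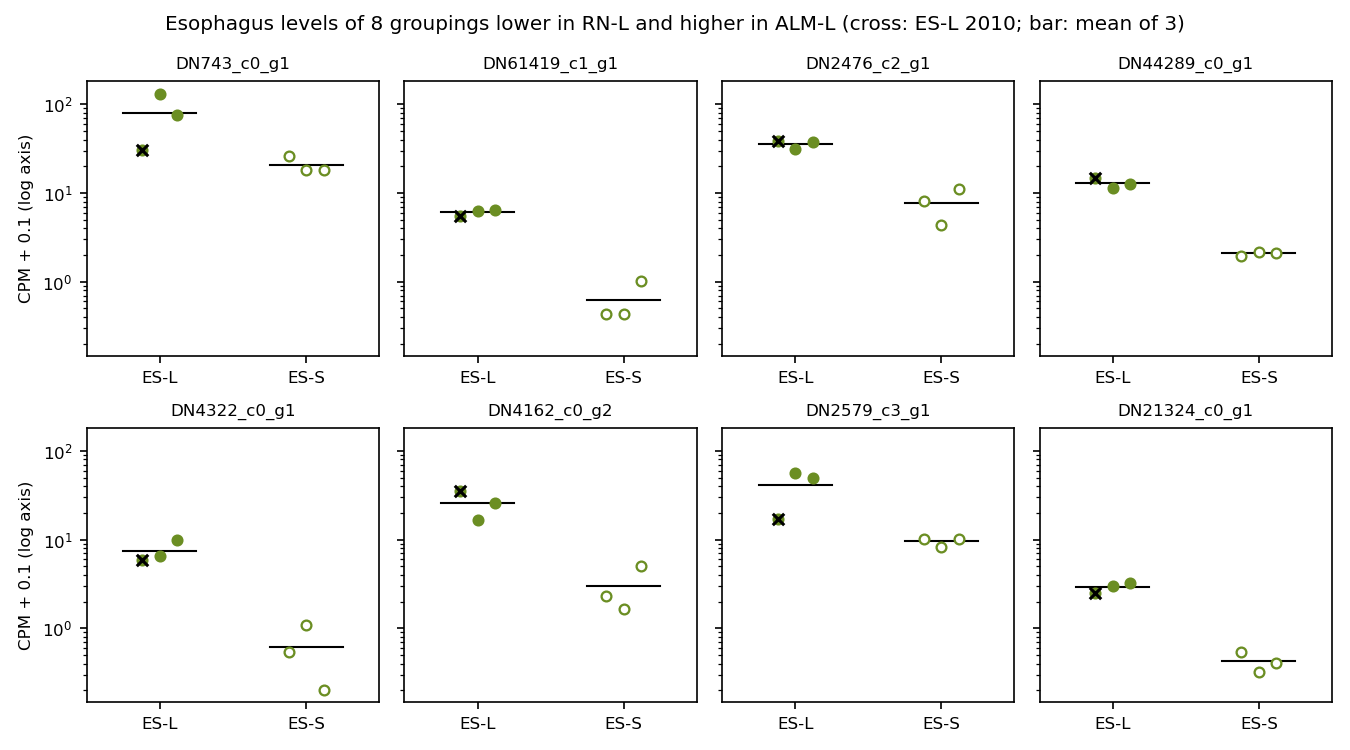
Esophagus levels of 8 muscle-up groupings, as CPM + 0.1 on a log axis, with ES-L filled, ES-S open, bars at the mean of 3 libraries and a cross on ES-L 2010. In each panel all ES-L libraries lie above all ES-S libraries, as with DN44289_c0_g1 at 11.3 to 14.9 CPM in ES-L against 1.88 to 2.09 CPM in ES-S.

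Among the named members the esophagus was less regular. Krt2 had 796, 537 and 455 CPM in ES-L, against 119.8, 108 and 301 CPM in ES-S, without overlap but not called by edgeR (log2 fold-change 1.87 ± 0.61, Benjamini-Hochberg adjusted p = 0.476). DN743_c0_g1 had 30.5, 131 and 76.6 CPM in ES-L, against 26.3, 18.1 and 18.0 CPM in ES-S, with ES-L 2010 close to the Small libraries. St8sia was uneven, with 0.889, 7.76 and 76.9 CPM in ES-L against 4.31, 3.19 and 2.85 CPM in ES-S. Among the nerve-up groupings Fbs_5 was erratic there, with 7.75, 227 and 243 CPM in ES-L and 6.29, 14.1 and 0 CPM in ES-S. Clect_56 was lower in Large animals in each year, with 48.1, 42.5 and 76.2 CPM in ES-L and 93.4, 72.8 and 93.9 CPM in ES-S, an overlap between the groups.

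Reading the pattern in a year that was not used gave different answers for the years. Groupings were chosen anew on 2 years and their direction was read in the year left out. Of 50 nerve-up groupings chosen without 2010, 1 was higher in RN-L and lower in ALM-L in 2010, where 7.74% of all rows at 1 CPM or more were. The nerve direction held in 49 of them, beside 57.9% of rows, and the muscle direction in 1, beside 18.4%. With 2011 left out 37 of 50 held in that year, beside 33.7% of rows, and with 2013 left out 42 of 50, beside 27.4%. For the muscle-up pattern 29 of 50 held in 2010, 35 in 2011 and 42 in 2013, beside 30.4%, 21.5% and 25% of rows. In 2010 the RN direction held in 44 of these 50, beside 41.3% of rows, but the ALM direction in only 33, beside 79.5% of rows. In ALM the median d over all rows was 0.62 in 2010, against −0.11 in 2011 and 0.11 in 2013. With TMM scaling, which sets that shift to 0.02, 2 of 50 nerve-up groupings held in 2010, beside 17.2% of rows, and 23 of 50 muscle-up groupings, beside 21.5%. The ALM direction then held in 25 of these 50 muscle-up groupings, beside 50.8% of rows.

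**Figure D5:**
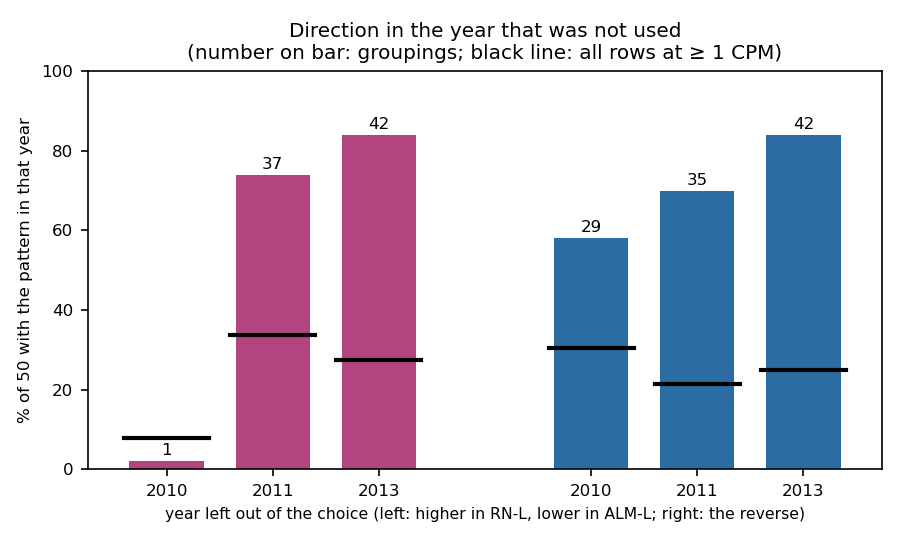
Share of 50 groupings chosen on 2 years that showed the pattern in the year left out, for nerve-up (left bars) and muscle-up (right bars), with the number of groupings on each bar and black lines at the share of all rows at 1 CPM or more with that pattern in that year. Bars stand above the line except for the nerve-up pattern in 2010, with 1 of 50 beside 7.74%.

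The nerve-up set shared 3 groupings, Gabbr1_3, NmbrL_4 and MachrM4, with the study's 134 nerve function genes, of which 120 were linked, to 129 groupings. In RN edgeR called 102 of 122 groupings higher and 11 lower in RN-L, beside 11.4% and 10.3% of all rows. In ALM 0 of 62 were called, with 26 of the 62 fold-changes positive, as were 50.5% over all rows. The muscle-up set shared 1 grouping, Clect_56, with 60 immunity genes, of which 44 were linked. In RN 19 of 35 immunity groupings were called higher and 12 lower in RN-L, beside the same shares of all rows, and in ALM 0 of 23 were called. Both lists were likewise chosen by the study on these libraries.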

How the data were processed

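The deposited table holds estimated counts per Trinity grouping, which the authors made by trimming the reads of 18 pooled libraries, aligning them to a de novo assembly and counting with RSEM. They were deposited as whole numbers without normalization. The submitters' processing notes name FastQC 0.10.1, Trimmomatic 0.38, Bowtie2 2.3.4, RSEM and DESeq 1.20.

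Tests used the quasi-likelihood test of edgeR 4.0.16 in R 4.3.3, with TMM scaling, edgeR's default filter on low counts and Benjamini-Hochberg adjustment over all rows tested. The size effect was fitted within a tissue and the RN minus ALM level on all 18 libraries. DESeq2 1.42.0 was an alternative, as were other scalings, pseudocounts and filters, a replicate block and libraries left out. The scripts were tested on simulated counts in which 200 groupings were changed by a log2 fold-change of 2. The edgeR test recovered 0.5% of them in ES, 5% in ALM, 11% in RN and 44% in RN minus ALM.

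Groups and years came from the library titles. For RN the year field of the labels gives 2010 in all 6 libraries, while the titles give 2010, 2011 and 2013, and the titles were followed, so the yearly differences, the replicate block and the years left out rest on them. Gene names came from counts that the study lists for named genes, matched to the deposited table, which linked 891 of 1077 genes to 979 groupings. Its listed comparisons were not used. Groupings of one Trinity cluster may share reads. Named members were the 5 highest scores in each direction and all that were linked to a gene name, and others are marked where they appear. The members and the gene lists were chosen with earlier results of these data known. Same-year deviations of Large and Small libraries correlated between −0.58 and 0.36 and those of RN and ALM libraries of one size, which came from the same animals, between 0.01 and 0.33.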

Additional observations from a re-analysis of the deposited data

Results flagged for a closer look

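Across all 127198 groupings, 559 were higher in RN-L than in RN-S and lower in ALM-L than in ALM-S in each of the 3 years, and 2021 were lower in RN-L and higher in ALM-L in each year. They were flagged because all yearly differences went one way in nerve and the other way in muscle. The difference between the tissues was not tested. In the same direction in both tissues, 2557 were higher and 784 lower in Large animals in each year. With TMM scaling the 4 counts were 971, 1220, 1288 and 1718 in the same order, so the larger number of muscle-up than nerve-up groupings narrowed under that scaling. Both opposite patterns were then rarer than either pattern in the same direction.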

How the results depend on the processing

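With DESeq2, the count of groupings called for size was 372 in ES and 353 in ALM, instead of 1 and 1, and 8 muscle-up groupings were called higher in ES instead of 0. With column sums alone, 0 were called in ES and 0 in ALM, the nerve-up groupings called lower in RN than in ALM numbered 2 instead of 6, and the muscle-up groupings called higher 20 instead of 13. That scaling also turned RN minus ALM differences that were not called: 0.20 for DN23166_c0_g1, 0.48 for St8sia, 0.28 for IgfbpL7, 0.39 for Clect_56 and 0.16 for Rgn. Without the filter on low counts, 1772 groupings were called in ES, 771 in ALM and 9559 in RN instead of 6302, with 10 muscle-up and 1 nerve-up groupings higher in ES. The totals pool both directions, and the share of rows called higher in ES was not taken for this setting. With all 18 libraries in one fit, 40 were called in ES, among them 1 muscle-up grouping, and 114 in ALM. With sampling year as a replicate block the counts were 0 in ES, 0 in ALM and 3833 in RN, and St8sia turned to 0.041, while the counts of members called in ES and in RN minus ALM did not change. The causes were not tested.

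Leaving out 1 library gave 0 to 9 calls in ALM, 0 to 892 in ES with the highest without ES-L 2010, and 2380 to 6679 in RN with the lowest without RN-S 2010. Members called in ES were then 0 to 7 muscle-up higher and 0 to 1 nerve-up lower. In RN minus ALM, 13552 to 16259 groupings were called, with 31 to 33 nerve-up higher, 4 to 7 nerve-up lower, 11 to 14 muscle-up higher and 20 to 21 muscle-up lower. With 1 library left out, the RN minus ALM difference of St8sia ran from −0.36 to 0.060 and turned sign without ALM-S 2013 or ALM-L 2013 (0.02), and that of DN23166_c0_g1 ran from −0.84 to 0.10, turning without ALM-L 2010.

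Membership depended on the rule. With TMM scaling 17 nerve-up and 24 muscle-up groupings stayed among the 50 highest scores, and with group means, which is the choice with no replicate block, 25 and 29. Leaving out a year kept 1 to 30 nerve-up and 20 to 31 muscle-up groupings, both lowest without 2010. Of nerve-up groupings chosen without 2010, 2 held in 2010 with TMM scaling and 2 with a pseudocount of 5, instead of 1. Pools of animals, 3 per group, and low muscle counts limit what these values resolve.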

Other observations

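With column sums, 2921 groupings were higher in Large animals in both ALM and ES in every year and 203 were lower in ALM and higher in ES, against 1321 and 360 with TMM scaling. For RN and ES, 2023 were higher in both and 1293 lower in RN and higher in ES, against 1346 and 1425 with TMM scaling. DN609_c0_g1, linked to Astacin2 and just outside the nerve-up limit, had 69.0, 1301 and 1249 CPM in ES-L and 84.5, 152 and 15.5 CPM in ES-S, an uneven pattern over years like that of Fbs_5. It was picked out after its values were seen.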
